A study of Mus musculus with 3 samples.

Results

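The messages of the myosins, the motor proteins that move along actin filaments, were described in RNA recovered by immunoprecipitation (RIP-seq). They were taken by name: every gene whose symbol begins with Myh, Myl or Myo and a number, together with Mylk, Ppp1r12a and Ppp1r12b. This gave 53 of the 41743 genes in the tables. Of the 53, 37 had a count in at least 1 library, 26 passed the filter on low counts and were tested, 11 had counts but fell under the filter, and 16 had no count in any library.

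The RNA came from K7M2 cells, a mouse osteosarcoma line. There were 2 libraries from an anti-ezrin antibody (ezrin IP) and 1 from normal mouse IgG (IgG IP). All 3 libraries shared 1 genotype, Ezrin -/- with a transfected Ezrin T567A, so the cells' own ezrin had been removed and a mutant that cannot be phosphorylated at that threonine put back. The transgene was stably integrated after gene editing, and the cells were otherwise untreated. No source used here gives the promoter of the transgene or says whether the line was 1 clone. The comparison asks which messages were more or less abundant with the ezrin antibody than with IgG.

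A conventional myosin, or myosin II, holds a pair of heavy chains with motor heads, and each head carries an essential and a regulatory light chain. Myosin light chain kinase (Mylk) phosphorylates the regulatory light chain and so lets filaments form and pull on actin, and myosin phosphatase, whose targeting subunits are Ppp1r12a and Ppp1r12b, takes the phosphate off. Unconventional myosins form no such filaments and carry vesicles, tether membranes or shape protrusions of the cell surface, where ezrin ties the plasma membrane to actin.

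Counts totalled 19676595 and 16196329 in the ezrin IP libraries and 10124580 in the IgG IP library. Protein-coding genes held 97.0% and 97.5% of the counts in the ezrin IP libraries and 74.1% in the IgG IP library. Levels are therefore given as CPM (counts scaled to a common library total with TMM factors). These factors are set on the bulk of the genes. Ezr itself had 349 and 350.5 CPM in the ezrin IP libraries against 155 CPM in the IgG IP library, a count that does not separate the transgene from the edited gene. Among bone markers Col1a2, Sparc and Spp1 were abundant, while Ibsp had no count and Sp7 had 1 count in all. Of 5 macrophage markers Csf1r alone passed the filter, and Ptprc and Adgre1 had no count. Csf1r was abundant, at 964 and 870 CPM in the ezrin IP libraries and 1234 CPM in the IgG IP library. Whether the ezrin IP libraries came from separate cultures is not stated, so the spread between these samples may be technical. The p-values rest on that spread pooled across genes, and a gene's own spread had no weight in its p-value. An exact permutation of 2 libraries against 1 cannot go below p = 0.333. No library of unselected RNA was analysed here, so a message's level in the cells and its recovery with an antibody cannot be told apart.

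Among the myosins 1 heavy chain, 2 regulatory light chains and 4 unconventional motors were higher with the ezrin antibody. With p-values from edgeR (quasi-likelihood) adjusted by Benjamini-Hochberg over all 12478 genes tested, 7 of the 26 tested myosin genes (26.9%) were higher in the ezrin IP libraries and 0 were lower, and 19 were not called. Across all genes tested, 19.0% were higher and 17.4% lower. At an unadjusted p under 0.05 the myosin counts were 7 higher and 1 lower (Mylk), and DESeq2 also called 7 higher and 0 lower. They included the nonmuscle heavy chain Myh9, the regulatory light chains Myl12a and Myl12b, and the unconventional myosins Myo1c, Myo1e and Myo6. The median log2 fold of the 26 was 0.17, and that of all genes tested was −0.02.

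The myosin genes together held 0.955% (95% exact interval 0.951 to 0.959) and 0.912% (0.908 to 0.917) of all counts in the ezrin IP libraries, against 0.511% (0.506 to 0.515) in the IgG IP library. These intervals cover counting error only. Among protein-coding counts the shares were 0.984% and 0.935% in the ezrin IP libraries and 0.689% in the IgG IP library. Without Myh9, the rest of the family held 0.450% and 0.439% of protein-coding counts in the ezrin IP libraries and 0.445% in the IgG IP library, so the IgG value lay between the ezrin IP values.

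**Figure D1:**
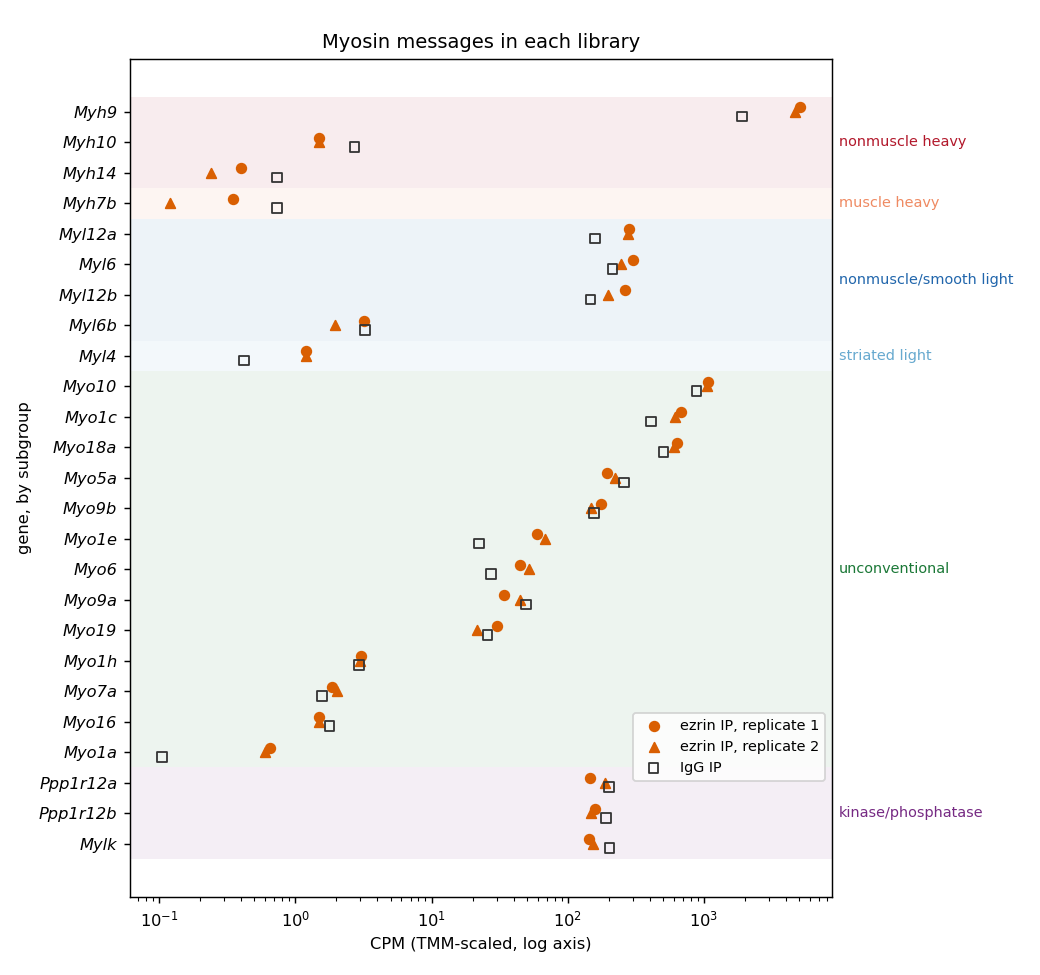
CPM (log axis) of 25 tested myosin genes in each library, by subgroup; filled circles and triangles are ezrin IP replicates 1 and 2, and open squares the IgG IP library. Myh9 stands at 5084 and 4675 CPM in the ezrin IP libraries against 1911 CPM in the IgG IP library, and 9 of the 25 genes have a mean under 10 CPM.

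Of the 3 nonmuscle heavy chains, Myh9 was higher in the ezrin IP libraries and the other two were rare and not called. Myh9, the heavy chain of nonmuscle myosin IIA (chromosome 15, 77760585 to 77842175, GRCm38), had 102013 and 78413 counts in the ezrin IP libraries and 18284 in the IgG IP library. This is 5084 and 4675 CPM with the ezrin antibody against 1911 CPM with IgG, and both ezrin IP libraries lay above IgG. The fitted difference was 2.55-fold (log2 fold 1.35, SE 0.21, edgeR adjusted p = 1.96e-09). By CPM Myh9 ranked 5 among all genes in the mean of the ezrin IP libraries and 18 in the IgG IP library. After cyclic loess, which removes any trend of the fold with expression level, its log2 fold was 0.29 and it was not called (adjusted p = 0.212).

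Myh10, the heavy chain of nonmuscle myosin IIB (chromosome 11, 68691915 to 68816626), had 30 and 25 counts in the ezrin IP libraries and 26 in the IgG IP library. That gave 1.495 and 1.490 CPM in the ezrin IP libraries against 2.72 CPM in the IgG IP library, so both ezrin IP values lay under the IgG value. The log2 fold was −0.86 with an approximate 95% interval of −1.99 to 0.27 (edgeR adjusted p = 0.241). Myh14, the heavy chain of nonmuscle myosin IIC, had 8 and 4 counts in the ezrin IP libraries and 7 in the IgG IP library (log2 fold −1.16, edgeR adjusted p = 0.412). The upper ends of the Myh10 and Myh14 intervals were 0.27 and 0.93, and the Myh9 interval was 0.95 to 1.76. The difference between these genes was not tested. After cyclic loess the log2 folds were 0.29 for Myh9, −0.58 for Myh10 and 0.20 for Myh14. The median log2 fold of all genes tested was −0.89 under 1 CPM, −0.26 from 1 to 10 CPM and 0.79 at or above 1000 CPM. Of all myosin counts, Myh10 and Myh14 together made up 0.0202% and 0.0196% in the ezrin IP libraries and 0.0638% in the IgG IP library.

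The light chains that pair with nonmuscle and smooth muscle heavy chains included 2 that were higher, the regulatory chains Myl12a and Myl12b. The essential chains Myl6 and Myl6b were not called, and the difference between the kinds was not tested. Myl12a (chromosome 17, 70993793 to 71002533) and its neighbour Myl12b (70973963 to 70990516) encode near-identical regulatory light chains. Myl12a had 279.9 and 278.5 CPM in the ezrin IP libraries and 158 CPM in the IgG IP library, a 1.77-fold difference (log2 fold 0.82, SE 0.24, edgeR adjusted p = 0.00301). Myl12b had 264 and 198 CPM in the ezrin IP libraries and 147 CPM in the IgG IP library, a 1.58-fold difference (log2 fold 0.66, SE 0.24, edgeR adjusted p = 0.021). In each gene both ezrin IP libraries were above IgG, and the ezrin IP libraries lay closer together for Myl12a than for Myl12b.

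Reads that match both genes could be split between them, and no source used here gives the rule for such reads, so the single values of this pair are uncertain. After cyclic loess neither was called (log2 folds 0.52 and 0.37, adjusted p = 0.0773 and 0.234). The other regulatory light chain of this kind, Myl9 (chromosome 2, 156775408 to 156781657), had 0 counts in all 3 libraries, which allows at most 0.150, 0.179 and 0.314 CPM in ezrin IP replicates 1 and 2 and IgG IP for a limit of 3 counts.

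Myl6, the main essential light chain (chromosome 10, 128490859 to 128493886), had 303 and 247 CPM in the ezrin IP libraries and 213 CPM in the IgG IP library. Both ezrin IP values were above IgG, yet the log2 fold of 0.37 had an interval of −0.09 to 0.83 and was not called (edgeR adjusted p = 0.209). On log2(RPKM + 1) limma called Myl6 higher (0.74, adjusted p = 0.0244). Myl6b, an essential light chain encoded next to it, had 64 and 33 counts in the ezrin IP libraries and 31 in the IgG IP library. Its CPM of 3.19 and 1.97 with the ezrin antibody reached from just under to well under the IgG value of 3.24, and the log2 fold was −0.32 (edgeR adjusted p = 0.642). Over the 4 tested light chains of this subgroup the median log2 fold was 0.51, with 2 of 4 higher, beside 19.0% of all genes. Myl12a, Myl12b and Myl6 had a mean from 100 to 1000 CPM, where 37.6% of all genes were higher and the median log2 fold was 0.28.

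**Figure D2:**
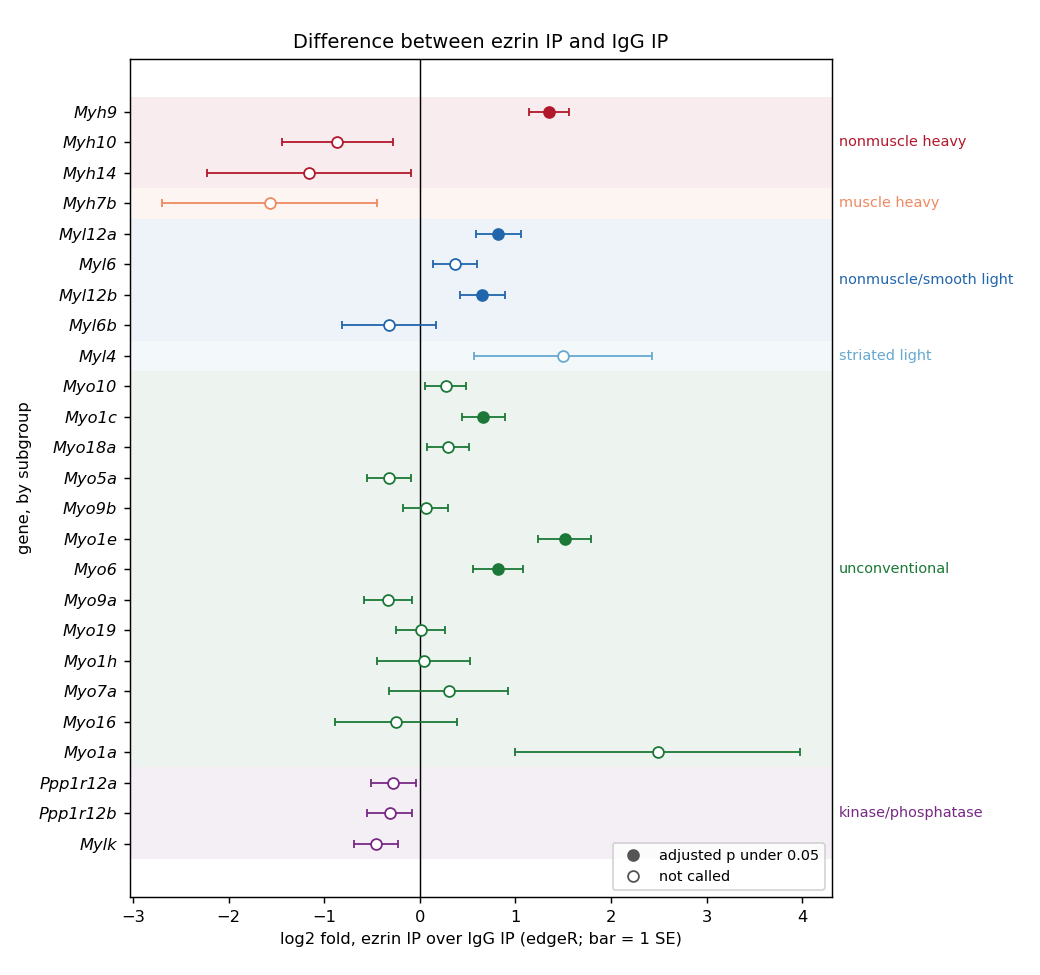
Fitted log2 fold of ezrin IP over IgG IP with 1 SE for 25 tested myosin genes, by subgroup; filled points have an adjusted p under 0.05. The 6 filled points lie to the right of 0, the 3 kinase and phosphatase genes lie to the left of it unfilled, and Myo1a has the widest bar because it rests on 1 count in the IgG IP library.

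The unconventional myosins that were higher included Myo1c, Myo1e and Myo6. Of 25 such genes 14 were tested, with 4 higher (28.6%), 0 lower and a median log2 fold of 0.28. Of all genes tested, 19.0% were higher and 17.4% lower. Among the 8 genes of class I, the single-headed myosins that bind membranes, 5 were tested and 3 were higher. In the remaining classes only Myo6 was higher, out of 9 tested. These are few genes, and the difference between class I and the other classes was not tested.

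Myo1e, a class I motor of endocytic sites and cell adhesions (chromosome 9, 70207350 to 70400067), had 59.7 and 67.7 CPM in the ezrin IP libraries and 22.3 CPM in the IgG IP library. Among the called myosin genes it had the largest difference, 2.86-fold (log2 fold 1.52, SE 0.27, edgeR adjusted p = 6.73e-07). Each ezrin IP library was well above IgG, and the ezrin IP libraries were close to each other.

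Myo1c, which takes part in delivering vesicles to the plasma membrane (chromosome 11, 75650519 to 75674643), was more abundant, at 677 and 617 CPM in the ezrin IP libraries and 408 CPM in the IgG IP library. Its difference was smaller, 1.59-fold (log2 fold 0.66, SE 0.22, edgeR adjusted p = 0.0111), and after cyclic loess it was 0.14 on the log2 scale and not called (adjusted p = 0.659). Myo1h had 3.04 and 2.98 CPM in the ezrin IP libraries and 2.93 CPM in the IgG IP library (log2 fold 0.04, interval −0.92 to 0.998). The Myo1h gene overlaps Kctd10, which had 8428, 6291 and 3344 counts in ezrin IP replicates 1 and 2 and IgG IP, and without knowledge of strand use its few reads could belong to either.

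Myo1a, a motor of intestinal microvilli, had 13 and 10 counts in the ezrin IP libraries against 1 count in the IgG IP library. The ratio of pooled CPM was 5.97 with a 95% counting interval of 0.970 to 246, and edgeR did not call it (adjusted p = 0.184). Myo1a was called higher after cyclic loess (adjusted p = 0.023) and on log2(RPKM + 0.1) (adjusted p = 0.0395).

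Myo6, which moves toward the pointed end of actin filaments and serves endocytosis (chromosome 9, 80164976 to 80311729), had 44.9 and 51.7 CPM in the ezrin IP libraries and 27.4 CPM in the IgG IP library. Both ezrin IP libraries were above IgG, by 1.76-fold in the fit (log2 fold 0.82, SE 0.26, edgeR adjusted p = 0.00781). Myo1e and Myo6 were called higher under each of the 9 alternatives of filter, scaling, unit and tool that gave calls.

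The most abundant unconventional myosins outside class I were not called. Myo10, a motor of filopodia (chromosome 15, 25622550 to 25813673), had 1067 and 1060.2 CPM in the ezrin IP libraries and 882 CPM in the IgG IP library. Its log2 fold of 0.27 had an interval of −0.15 to 0.69 (edgeR adjusted p = 0.332). Of protein-coding counts Myo10 held 0.112% and 0.113% in the ezrin IP libraries and 0.112% in the IgG IP library. Myo18a, a myosin linked to the Golgi that lacks the usual motor activity, had 631 and 604 CPM in the ezrin IP libraries and 505 CPM in the IgG IP library (log2 fold 0.29, edgeR adjusted p = 0.304). Both genes were above IgG in both ezrin IP libraries by small margins. After cyclic loess their log2 folds were −0.41 and −0.25, not called, while limma on log2(RPKM + 1) called both higher (0.65 each, adjusted p = 0.0346 for Myo10 and 0.0274 for Myo18a).

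Myo5a, a carrier of vesicles and pigment granules, had 194 and 222 CPM in the ezrin IP libraries and 259.8 CPM in the IgG IP library, both below IgG (log2 fold −0.32, interval −0.77 to 0.13, edgeR adjusted p = 0.274), and it was called lower after cyclic loess (−0.62, adjusted p = 0.0312). Myo9a and Myo9b are myosins that carry a domain able to switch off a small GTPase. Myo9a had 34.0 and 44.4 CPM in the ezrin IP libraries and 49.3 CPM in the IgG IP library (log2 fold −0.33). Myo9b had 174 and 149 CPM in the ezrin IP libraries and 155 CPM in the IgG IP library (log2 fold 0.06). The ezrin IP values of Myo9a lay below IgG and those of Myo9b on either side of it, and neither gene was called.

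Myo19, a motor of mitochondria, had 30.0 and 21.6 CPM in the ezrin IP libraries around the 25.7 CPM of the IgG IP library (log2 fold 0.01). Myo7a, known from hair cells of the inner ear, had 37 and 34 counts in the ezrin IP libraries and 15 in the IgG IP library. That gave 1.84 and 2.03 CPM in the ezrin IP libraries against 1.57 CPM in the IgG IP library (log2 fold 0.30). Myo16, a myosin of nerve cells, had 30 and 25 counts in the ezrin IP libraries and 17 in the IgG IP library. By CPM it was lower with the ezrin antibody, at 1.495 and 1.490 against 1.78 in the IgG IP library (log2 fold −0.25). None of these genes was called (edgeR adjusted p = 0.984, 0.735 and 0.787), and the Myo19 and Myo9b genes overlap others with counts (Pigw and Znhit3, and Haus8), so that part of their reads may be shared.

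Mylk and the phosphatase targeting subunits Ppp1r12a and Ppp1r12b were not called, and each had lower CPM in both ezrin IP libraries than in IgG. The catalytic subunit Ppp1cb and the kinase Rock1, outside the myosin set, were called lower and are given below. Mylk (chromosome 16, 34745199 to 35002436) had 143 and 153 CPM in the ezrin IP libraries and 203 CPM in the IgG IP library. The log2 fold was −0.46 (SE 0.23), with an unadjusted p = 0.0492 and an edgeR adjusted p = 0.11. Mylk was called lower when genes had to average 10 CPM (log2 fold −0.57, adjusted p = 0.0281) and after cyclic loess (log2 fold −0.72, adjusted p = 0.0137).

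Ppp1r12a had 145 and 186 CPM in the ezrin IP libraries and 200.1 CPM in the IgG IP library (log2 fold −0.28, edgeR adjusted p = 0.364). Ppp1r12b had 158 and 148 CPM in the ezrin IP libraries and 190.0 CPM in the IgG IP library (log2 fold −0.32, edgeR adjusted p = 0.292), and was called lower after cyclic loess (−0.58, adjusted p = 0.0469). The direction depended on the scale: the median log2 fold of the 3 was −0.32 on counts and 0.07 on log2(RPKM + 1), where the median of all genes was 0.22.

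The muscle myosins were mostly unmeasured. Of 11 muscle heavy chains, Myh1, Myh2, Myh4, Myh6, Myh8 and Myh13 had no count in any library, and Myh3, Myh7, Myh11 and Myh15 had at most 8 counts in a library and were not tested. Of 6 light chains of striated muscle, Myl1, Myl2, Myl3, Myl7 and Myl10 had no count. For a gene with no count, 3 counts allow at most 0.150 and 0.179 CPM in the ezrin IP libraries and 0.314 CPM in the IgG IP library. Myh11, the smooth muscle heavy chain, had 3 and 1 counts in the ezrin IP libraries and 4 in the IgG IP library. Myh7, the slow and heart muscle heavy chain, had 6 and 7 counts in the ezrin IP libraries and 0 in the IgG IP library.

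Only Myh7b and Myl4 among these muscle genes passed the filter, and both overlap an expressed gene. Myl4, a light chain of atrial and embryonic muscle, had 24 and 20 counts in the ezrin IP libraries and 4 in the IgG IP library (2.82-fold, edgeR adjusted p = 0.201), and it was called higher after cyclic loess (adjusted p = 0.0478) and on log2(RPKM + 0.1) (adjusted p = 0.0413). It lies over Cdc27, which had 1168 and 1377 counts in the ezrin IP libraries and 1040 in the IgG IP library. Myh7b, a slow-type heavy chain, had 7 and 2 counts in the ezrin IP libraries and 7 in the IgG IP library (log2 fold −1.57, edgeR adjusted p = 0.278), and overlaps Trpc4ap. Only the spans of the genes were compared, and strand use is not given, so some reads of these pairs could belong to either gene.

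The unconventional myosins Myo1d, Myo1f, Myo3a and Myo7b, also had no count. Myo1g, Myo3b, Myo5b, Myo5c, Myo15, Myo15b and Myo18b had at most 6 counts in a library and were not tested. Of these, Myo5b, a vesicle motor, had 0 counts in both ezrin IP libraries and 4 in the IgG IP library.

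Other markers of skeletal and heart muscle were sparse. Of 15 skeletal muscle markers 3 were tested and 8, among them Ckm, Myod1 and Myog, had no count. Their summed level was 48.0 and 59.6 CPM in the ezrin IP libraries and 115 CPM in the IgG IP library, mostly from Ttn. The 8 heart markers summed to 0.0498 and 0.298 CPM in the ezrin IP libraries and 0.941 CPM in the IgG IP library. Of 7 smooth muscle markers, Cnn1 and Lmod1 had no count, and the sum was 249 and 183 CPM in the ezrin IP libraries against 98.2 CPM in the IgG IP library, mostly from Smtn.

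Within each library, Myh9 took a larger part of the myosin messages with the ezrin antibody. It made up 54.3% and 53.1% of myosin counts in the ezrin IP libraries and 35.4% in the IgG IP library. The unconventional myosins made up 31.8% and 33.1% in the ezrin IP libraries against 43.9% in the IgG IP library, with Myo10 at 11.4% and 12.0% against 16.3%. Mylk and the phosphatase subunits together made up 4.76% and 5.53% in the ezrin IP libraries against 11.0% in the IgG IP library. The light chains held similar parts, 9.07% and 8.23% in the ezrin IP libraries against 9.63% in the IgG IP library. These are parts of 1 sum, so a larger Myh9 part lowers the others.

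**Figure D3:**
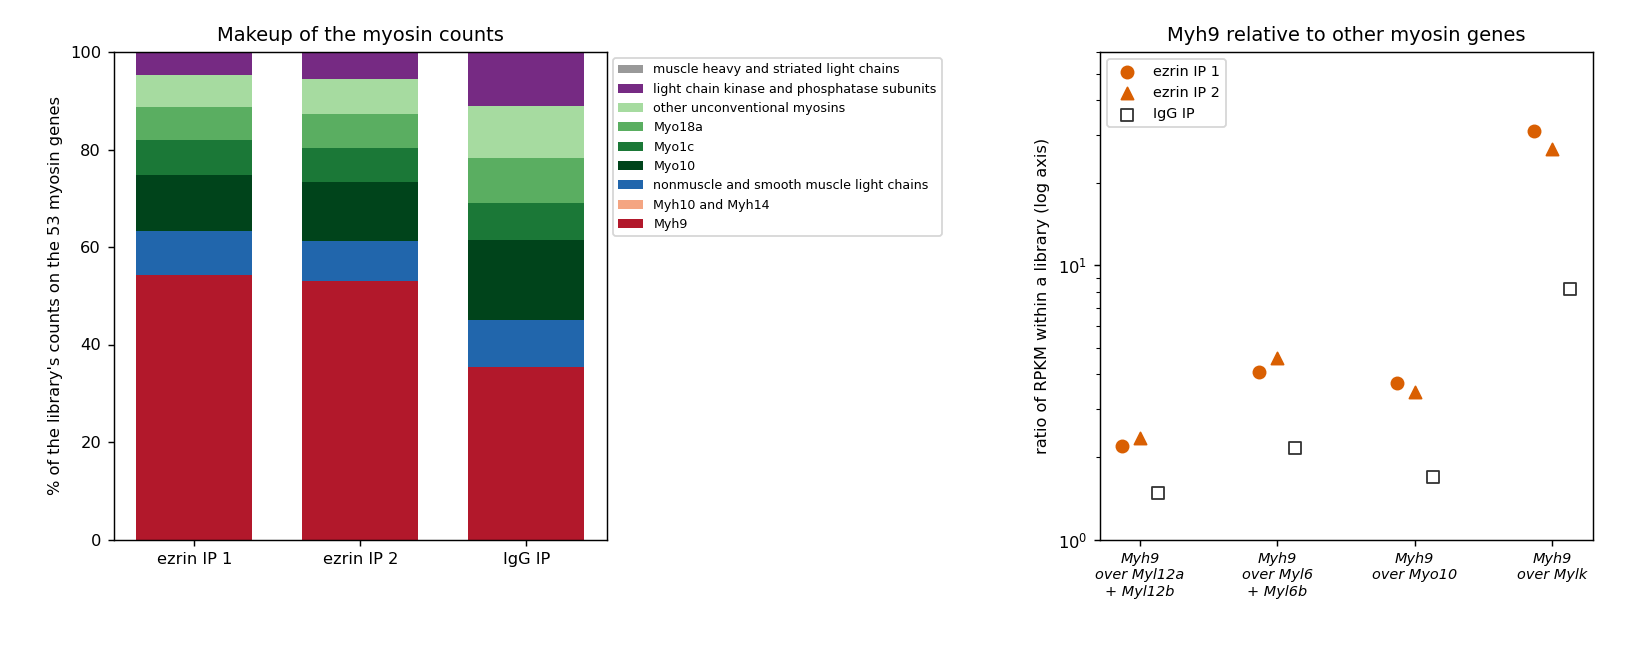
Left, percent of all myosin counts held by single genes and subgroups in ezrin IP replicates 1 and 2 and IgG IP; right, RPKM of Myh9 over that of other myosin genes in each library (log axis). Myh9 holds 54.3% and 53.1% in the ezrin IP libraries against 35.4% in the IgG IP library, and each of the plotted ratios is higher in both ezrin IP libraries than in the IgG IP library.

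Ratios between chains were taken on RPKM, which divides by gene length. The lengths behind the RPKM values are wider than a transcript for some genes (3187 bases for Myl6, whose RefSeq span is 3028), so a ratio between genes depends on them while its change between libraries does not. The RPKM ratio of Myh9 to Myl12a plus Myl12b was 2.20 and 2.34 in the ezrin IP libraries and 1.48 in the IgG IP library. That of Myh9 to Myl6 plus Myl6b was 4.07 and 4.61 in the ezrin IP libraries and 2.16 in the IgG IP library. On RPKM, Myh9 messages thus stood higher against both kinds of light chain with the ezrin antibody. After cyclic loess the order against the regulatory chains turned, with log2 folds of 0.29 for Myh9, 0.52 for Myl12a and 0.37 for Myl12b. Those of Myl6 and Myl6b were 0.05 and −0.08. The median log2 fold of all genes was 0.79 at or above 1000 CPM, where Myh9 lay, and 0.28 from 100 to 1000 CPM. The part of this trend in the ratios was not tested. The ratio of Myh9 to Mylk was 30.9 and 26.6 in the ezrin IP libraries and 8.20 in the IgG IP library, and that of Ppp1r12a to Mylk was 1.42 and 1.71 against 1.38. With 1 IgG IP library these ratios carry no test.

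Across all genes, the share called higher differed by expression level. Of the 72 genes at or above a mean of 1000 CPM, 66.7% were higher in the ezrin IP libraries, and of the 6351 genes between 10 and 100 CPM, 20.6% were. Myh9 and Myo10 lay in the top range, where 1 of the 2 was called. In the range of 100 to 1000 CPM, 3 of 10 myosin genes (Myl12a, Myl12b and Myo1c) were higher, beside 37.6% of all genes there. In the range of 10 to 100 CPM, 3 of 5, among them Myo1e and Myo6, were higher, beside the 20.6% of all genes. Of the 9 tested myosin genes under 10 CPM 0 were called. Of all genes, 3.32% of those under 1 CPM and 5.95% of those from 1 to 10 CPM were higher. In the same ranges 21% and 17.6% were lower, and the median log2 folds were −0.89 and −0.26. The part of this trend in the calls of Myh9, Myl12a, Myl12b and Myo1c was not tested beyond the loess values above.

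**Figure D4:**
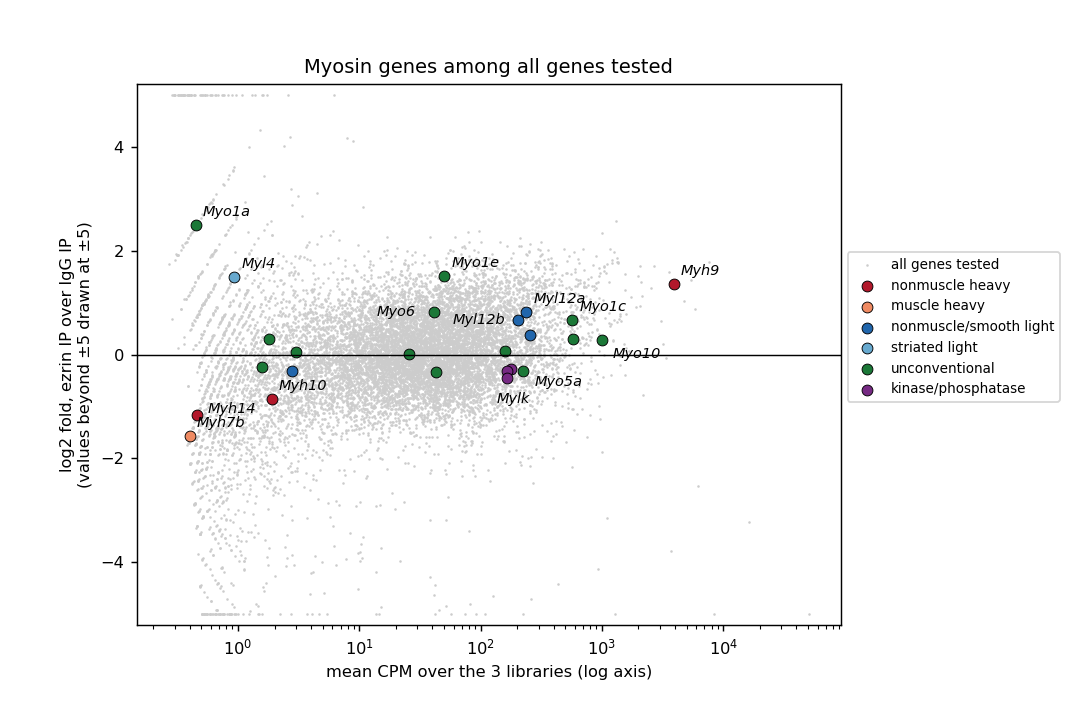
Fitted log2 fold of ezrin IP over IgG IP against mean CPM (log axis) for all genes tested (grey) and 25 tested myosin genes (coloured by subgroup, the called and some other genes named); values beyond 5 either way are drawn at that limit. Myh9 lies at the abundant end, where 66.7% of genes were higher, and Myo1e and Myo6 lie between 10 and 100 CPM, where 20.6% were.

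Genes that work with the myosins were examined in 6 lists, which were drawn up with earlier results of these data known. Chaperones that fold myosin heads had the highest list median, a log2 fold of 1.78. All 3 tested of 5 listed were higher, beside 19.0% of all genes. Unc45a, the chaperone dedicated to myosin, had 146 and 124 CPM in the ezrin IP libraries and 38.1 CPM in the IgG IP library (log2 fold 1.82, edgeR adjusted p = 3.67e-10). Its partner Hsp90ab1 had 9496 and 10324 CPM in the ezrin IP libraries and 2887 CPM in the IgG IP library. Hsp90aa1 had 1456 and 2074 CPM against 516 CPM, and both had a log2 fold of 1.78. Both Hsp90 genes had a mean above 1000 CPM, where 66.7% of all genes were higher. After cyclic loess the log2 folds were 0.53 for Hsp90ab1, 1.05 for Hsp90aa1 and 1.68 for Unc45a, each still called higher.

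Among actin filament partners 4 of 13 tested (30.8%) were higher and 0 lower, beside 19.0% and 17.4% of all genes. Their median log2 fold was 0.30. Actg1, cytoplasmic gamma actin, had 2437 and 2114 CPM in the ezrin IP libraries and 1208 CPM in the IgG IP library (log2 fold 0.91), and the calponins Cnn2 and Cnn3 had log2 folds of 0.95 and 0.59. Actb, cytoplasmic beta actin, and Tpm1, a tropomyosin, were not called (log2 folds 0.19 and 0.30). After cyclic loess Actb was called lower (−0.84, adjusted p = 4.19e-04) and the list had 1 higher and 2 lower, while on log2(RPKM + 1) Tpm1 was called higher (0.68, adjusted p = 0.0376) and the list had 7 higher and 0 lower. Of 7 tested calmodulins and related proteins, 3 (42.9%) were higher and 1 (14.3%) lower, beside the same shares of all genes. S100a4, which binds the tail of nonmuscle myosin IIA, had a log2 fold of 1.08 and S100a6 one of 0.79, while Calm3, a calmodulin gene, was lower at −0.67. Actg1, S100a4 and S100a6 were not called after cyclic loess (adjusted p = 0.874, 0.104 and 0.97), nor was Cnn3, and Calm3 was not called on log2(RPKM + 1).

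Of 6 tested genes of myosin phosphatase and its inhibitors, 0 were higher and 2 (33.3%) lower, beside 19.0% and 17.4% of all genes. Their median log2 fold was −0.29. Ppp1cb, the catalytic subunit, had 258 and 367 CPM in the ezrin IP libraries and 609.7 CPM in the IgG IP library (log2 fold −0.96, edgeR adjusted p = 7.4e-05). Mprip, which brings the phosphatase to actin, had 751 and 655 CPM in the ezrin IP libraries and 1045 CPM in the IgG IP library (log2 fold −0.57, edgeR adjusted p = 0.0213). Ppp1ca and Ppp1r14b were not called, at log2 folds of −0.23 and −0.34, and both were called lower after cyclic loess (−0.74, adjusted p = 0.00548, and −0.89, adjusted p = 0.00111). Neither Ppp1cb nor Mprip was called on log2(RPKM + 1), nor was Mprip with library size only or with no filter (adjusted p = 0.0751 and 0.0849).

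Of 20 tested genes of Rhoa signalling and of kinases of the light chain, 5 (25%) were higher and 5 (25%) lower, beside 19.0% and 17.4% of all genes. Rock1, a kinase that phosphorylates both the light chain and the phosphatase subunit, was lower at 40.8 and 43.6 CPM in the ezrin IP libraries against 90.4 CPM in the IgG IP library (log2 fold −1.10, edgeR adjusted p = 4.35e-05). Arhgap35, which switches RhoA off, was also lower (log2 fold −0.90). Arhgef1, an activator of RhoA, was higher at 309 and 213 CPM in the ezrin IP libraries against 109 CPM in the IgG IP library (log2 fold 1.26, edgeR adjusted p = 5.15e-06), as was Racgap1, a GTPase regulator of cell division (log2 fold 0.78). Rhoa itself had 323 and 343 CPM in the ezrin IP libraries and 341 CPM in the IgG IP library. Rock1 and Arhgap35 were not called on log2(RPKM + 1), nor was Racgap1 after cyclic loess.

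Of 13 tested cargo adaptors of unconventional myosins 1 (7.69%) was higher and 2 (15.4%) lower, beside 19.0% and 17.4% of all genes. Their median log2 fold was −0.10. Tax1bp1, an autophagy adaptor that binds Myo6, was higher at 75.3 and 89.0 CPM in the ezrin IP libraries against 46.6 CPM in the IgG IP library (log2 fold 0.82, edgeR adjusted p = 0.00572). Rab11fip2, which binds Myo5b, was lower at 12.4 and 17.9 CPM in the ezrin IP libraries against 27.4 CPM in the IgG IP library (log2 fold −0.85, edgeR adjusted p = 0.00443). Dab2, an endocytic adaptor of Myo6, and Rab10 and Rab8a, which mark vesicles, were not called (log2 folds 0.41, −0.48 and −0.10). Rab10 was called lower after cyclic loess and with a mean of 10 CPM (adjusted p = 0.0091 and 0.0199), and Dab2 higher on log2(RPKM + 1) (adjusted p = 0.0174). Rab11fip2 was not called by DESeq2 or on log2(RPKM + 1).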

How the data were processed

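RIP-seq libraries (2 ezrin IP, 1 IgG IP) were grouped by their labels. The authors deposited raw counts per gene and, per the file headers, RPKM values; the genome build was GRCm38 per the submitters' processing notes. No source used here gives the aligner, the counting tool, strand use or the handling of reads with several matches. The labels name both rRNA depletion and polyA RNA. Symbols were matched to RefSeq (30216 matched), which gave positions and gene types. Counts were fitted with edgeR 4.0.16 (filterByExpr, TMM, quasi-likelihood test, Benjamini-Hochberg over 12478 genes, called at 0.05) in R 4.3.3. The fit left 1 residual degree of freedom, and the lone IgG IP library was assumed to vary like the ezrin IP libraries. The prior degrees of freedom came out as infinite, so each test used the spread pooled across genes. Intervals of log2 folds are 1.96 SE either way. Alternatives used limma 3.58.1 on log2(RPKM + 1) or log2(RPKM + 0.1), DESeq2 1.42.0, cyclic loess, other filters and other scaling. Scripts were tested on simulated data. The myosin genes and the linked lists were chosen with earlier results of these data known. Every tested myosin gene is named except 1 that is not reported here, which is in the counts and medians but not the figures; of each linked list, with 1 gene likewise not reported, the 3 most abundant tested genes and the called genes with the largest and smallest log2 fold are named.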

Additional observations from a re-analysis of the deposited data

How the results depend on the processing

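The same 7 myosin genes were called higher with no filter, a mean of 10 CPM, library size only, DESeq2 size factors, DESeq2's Wald test and TMM over protein-coding genes, the last chosen after seeing the data. limma called 10 on log2(RPKM + 1) and 12 on log2(RPKM + 0.1), all 7 among them. Both scales added Myl6, Myo10 and Myo18a, and the second also Myl4 and Myo1a. There 79.5% and 81.6% of all called genes were higher, against 52.3% in edgeR with TMM, 62.0% with library size only and 61.3% by DESeq2 (all genes: 2377 higher and 2171 lower by edgeR, 1747 and 1101 by DESeq2, 3734 and 964, and 3745 and 843, by limma). Cyclic loess called 5 higher, of which 3 were among the 7 and Myl4 and Myo1a were not, and 3 lower (Mylk, Myo5a and Ppp1r12b), and a mean of 10 CPM called 1 lower (Mylk). The cause of these differences was not tested.

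The light chain median, 0.51, was 0.21 after loess and 0.87 and 0.89 on RPKM, and 0.32 to 0.66 with 1 ezrin IP library left out. The unconventional median, 0.28, was 0.60 with no filter, 0.17 at 10 CPM, 0.40 by library size, 0.29 by DESeq2 size factors and Wald test, 0.10 after loess, 0.35 and 0.55 on RPKM, 0.26 with protein-coding TMM, 0.39 with the length trend removed, and 0.25 with either of the ezrin IP libraries left out. The kinase and phosphatase median, −0.32, was −0.22 with no filter, −0.43 at 10 CPM, −0.20 by library size, −0.58 after loess, −0.22 with the length trend removed, −0.47 to −0.36 with 1 ezrin IP library left out, and 0.065 and 0.072 on RPKM with pseudocounts 1 and 0.1.

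Signs turned after loess for Myh14 (0.20), Myo10 (−0.41), Myo16 (0.073), Myo18a (−0.25), Myo19 (−0.033), Myo9b (−0.20), Actb (−0.84) and Tpm1 (−0.41), and at 10 CPM for Myo19 (−0.10) and Myo9b (−0.050). Myo19 was −0.012 with protein-coding TMM. On RPKM with pseudocounts 1 and 0.1 signs turned for Myl6b (0.019, 0.019), Myo16 (0.018, 0.083), Myo5a (0.061, 0.065), Myo9a (0.036, 0.045), Ppp1r12a (0.10, 0.10), Ppp1r12b (0.065, 0.072), Rab8a (0.27, 0.29), Ppp1r14b (0.041, 0.041), Ppp1ca (0.15, 0.15) and Rhoa (0.35, 0.35). Rab8a was 0.023 and Rhoa 0.087 by library size, and Rhoa 0.060 with no filter. Of the linked lists, loess and RPKM with pseudocount 1 gave 4 and 0 lower phosphatase genes (2 by edgeR with TMM), 1 and 7 higher filament partners (4), 4 and 0 lower cargo adaptors (2), 1 and 4 higher cargo adaptors (1), 1 and 3 higher calmodulin partners (3), 2 and 7 higher Rhoa and kinase genes (5), and 7 and 0 lower ones (5). No paired analysis was possible because the groups share only replicate number 1.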
